A study of Mus musculus with 2 samples.

Results

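The genes of the centromere, the kinetochore and the spindle assembly checkpoint are described here in RNA sequencing of mouse embryonic fibroblasts. The set holds 44 genes, listed by symbol, and 44 of 44 matched a row of a table of 23365 genes. Mouse embryonic fibroblasts are connective tissue cells grown in culture from embryos. By the labels, 1 library came from wild-type cells and 1 from cells with TET1/TET2 knocked out. TET1 and TET2 oxidize methylated cytosine in DNA. Not given in the sources used here are strain, embryo age, passage and whether cells of several embryos were pooled.

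The authors' table sets a condition B against a condition A, names that match no sample label. Every ratio below is therefore that of condition B over condition A, and no ratio is assigned to a genotype. The level of each condition was not used, for the same reason, so a gene's level is given as the authors' mean normalized count over both conditions. A normalized count is a read count divided by a factor that scales the libraries to each other. With 1 library per condition there is no spread between replicates, no ratio has an error, and no genotype was tested against the other. The authors' adjusted p-values compare 2 libraries.

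The centromere is the chromosome site that spindle microtubules pull on, and it is marked by nucleosomes that carry the histone variant CENP-A. A constitutive network of CENP proteins sits on this chromatin through the cell cycle. In mitosis it recruits the outer kinetochore, whose NDC80 complex binds microtubules, and the spindle assembly checkpoint, which holds back anaphase until the chromosomes are attached. Transcripts of many of these genes are known to accumulate in G2 and mitosis and to be low in cells that do not divide. In RNA from a whole culture, fewer dividing cells and less RNA per dividing cell cannot be told apart.

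Over 12401 genes with a mean of at least 50 normalized counts, the median log2 ratio was -0.04, with quartiles of -0.39 and 0.30. Both targeted genes had negative log2 ratios in the authors' deposited table, -1.82 for Tet1 (adjusted p = 0.851) and -0.74 for Tet2 (adjusted p = 1). The table gives no value per exon, so these ratios do not tie a condition to a genotype. The 12 fibroblast markers summed to 983847 in mean normalized count. At least 2-fold higher in condition B were 6 of them, beside 8.31% of all genes, and 0 were lower, beside 9.60%. Their log2 ratios, 9 positive and 3 negative, ran from -0.22 for Twist1 to 5.66 for Dcn in the authors' deposited table. The 6 epithelial markers summed to 151, the 4 endothelial ones to 556, the 4 leukocyte ones to 127 and the 4 skeletal muscle ones to 355, with Cd3e, Myod1 and Myog listed at 0. The 5 chondrocyte markers summed to 72439, nearly all from Col2a1, whose log2 ratio was -4.87 in the authors' deposited table. Among 14 proliferation markers, 11 were at least 2-fold lower in condition B, beside 9.60% of all genes, and 0 higher, beside 8.31%. The median of the 14 log2 ratios was -1.62. The proliferation markers included Mki67 (-2.26), Mybl2 (-2.01) and Foxm1 (-1.90), the last 2 being regulators of mitotic genes, while E2f1 lay at -0.02 in the authors' deposited table. The part of the fibroblast, cartilage and proliferation markers' shifts in the results below was not tested.

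Centromere, kinetochore and checkpoint genes were lower in condition B. A difference of 2-fold or more (1 on the log2 scale) at a mean of at least 50 served as the size rule. It was met by 34 of the 44 genes, each time lower in condition B, beside 9.60% of all genes. No member was higher by the rule (0 of 44), beside 8.31% of all genes. The median log2 ratio of the 44 was -1.67, and 42 of the 44 ratios were negative. The shares beside the p-value counts that follow also cover genes under the minimum mean of 50. No member lay under that minimum, so the sets compared are unlike. In the authors' deposited table, 5 members had an adjusted p under 0.1 and were lower in condition B, beside 0.871% of all genes with a p-value. No member passed that cut-off in the other direction (0 of 44), beside 1.42% of all genes. The 5 were the kinetochore genes Cenpf, Cenpe and Ndc80, the checkpoint kinase gene Bub1b and the mitotic kinase gene Plk1. At an unadjusted p under 0.05, the authors' deposited table lists 27 of the 44 as lower in condition B, beside 3.18% of all genes with a p-value, and 0 as higher, beside 3.10%.

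**Figure D1:**
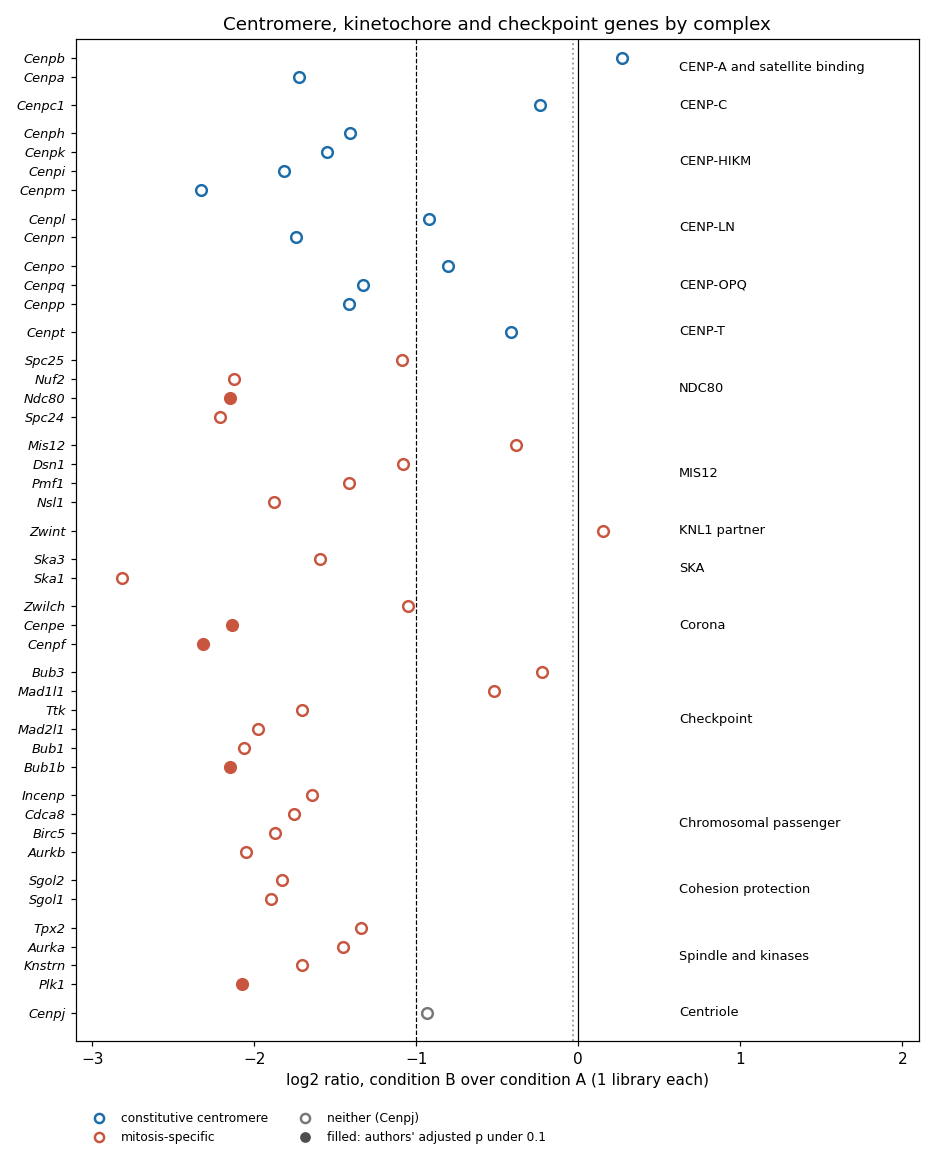
Each point is 1 gene, placed by its log2 ratio of condition B over condition A (1 library each) and grouped by complex. The dashed line marks 2-fold lower and the dotted line the median of all genes (-0.04), and filled points had an authors' adjusted p under 0.1. The points to the right of the dashed line are 10 genes, among them Cenpb, Zwint, Bub3, Cenpc1, Mis12 and Cenpt.

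The constitutive centromere genes and the mitosis-specific genes differed in how many met the size rule. Of 13 constitutive genes, 8 were lower in condition B (61.5%), and the 13 log2 ratios had a median of -1.41 and a range from -2.33 to 0.27. These 13 are Cenpa, Cenpb, Cenpc1, Cenph, Cenpi, Cenpk, Cenpl, Cenpm, Cenpn, Cenpo, Cenpp, Cenpq and Cenpt. The class called mitosis-specific holds all other members but Cenpj, among them Mis12, Zwint, Bub3 and Mad1l1. Its name does not describe when the transcripts are made, which was not measured. Of 30 mitosis-specific genes, 26 were lower (86.7%), with a median of -1.79 and a range from -2.82 to 0.15. The medians lay 0.38 apart on the log2 scale, and the ranges overlapped over most of their length. The 5 genes under the authors' adjusted p of 0.1 were mitosis-specific, 5 of 30, and 0 of 13 were constitutive, beside 0.871% of all genes, so the 0 says nothing particular about the constitutive genes. Whether the classes differ was not tested, since genes of 1 library pair are not replicates. Cenpj, named as a centromere protein gene but encoding a centriole assembly factor, was placed in neither class, and the authors' deposited table gives it a log2 ratio of -0.93. It lay just short of the size rule, and Zwilch (-1.05) lay just past it.

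**Figure D2:**
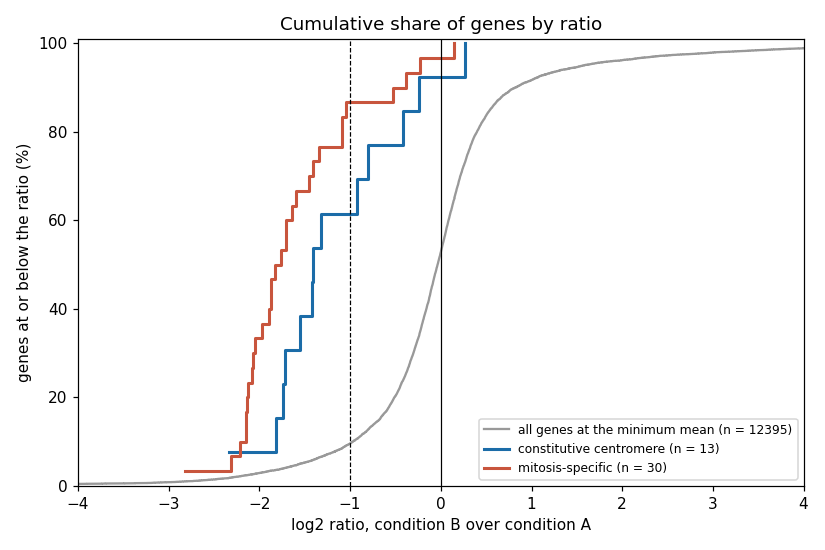
The lines give the cumulative percentage of genes (vertical axis) at or below each log2 ratio (horizontal axis) for all genes with a mean of at least 50 and a finite ratio, the 13 constitutive and the 30 mitosis-specific members. At the dashed line, 2-fold lower in condition B, the constitutive line stands at 61.5% and the mitosis-specific line at 86.7%.

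Levels of the members spanned a wide range. Per kilobase of the longest annotated transcript, their mean normalized counts ran from 67.2 for Nsl1 to 2549 for Cenpb, with a median of 427 beside 597 for 11695 genes at the minimum mean with a known length. Cenpb, Zwint and Bub3 had the highest levels per kilobase, 2549, 2457 and 1747, and these 3 genes were all short of the size rule. Tpx2 and Plk1 followed, at 1656 and 1537 per kilobase, and both met it. At the low end stood Nsl1, Cenpl (108), Cenpp (120), Ska1 (127) and Cenpo (133), which lay on both sides of the rule. The lowest mean normalized count of a member was 248, so 44 of 44 passed the minimum of 50.

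**Figure D3:**
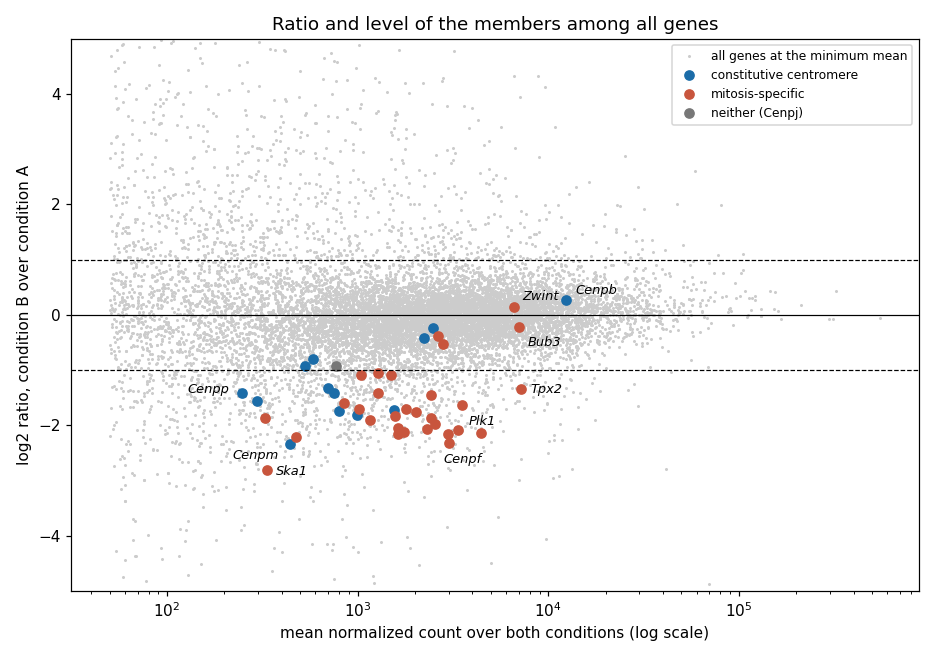
Each point is a gene, by its mean normalized count over both conditions (horizontal, log scale) and its log2 ratio of condition B over condition A (vertical, shown from -5 to 5). Dashed lines mark 2-fold differences. Of the 44 members, 34 lie below the lower dashed line and 10 between the lines, among them Cenpb, Zwint and Bub3.

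The promoters of the members are shown because elements shared by mitotic genes are known. Whether these elements bear on the ratios was not tested. The CHR element (TTTGAA) is bound by the DREAM and MuvB complexes, the CCAAT box by NF-Y, and the E2F site was searched as TTTCCCGC, TTTGGCGC, TTTCGCGC or TTTGCCGC, each on both strands. RefSeq windows of 250 bases before to 50 after the annotated start (GRCm38.p6) were matched for 37 of the 44 genes, and none was matched for Aurkb, Incenp, Nsl1, Ska1, Spc24, Tpx2 and Zwilch. Below, 120 bases before the start and 30 after it are given 5′ to 3′ along the gene, with these motifs in capitals. A motif on the other strand reads TTCAAA or ATTGG. Cenpa, Cenpf, Cdca8 and Ttk hold a CHR element close to the start beside CCAAT boxes and were lower in condition B. Cenpe and Nuf2 were lower as well and hold no CHR element, like most of the 27 matched members that met the size rule, and Nuf2 holds none of the motifs. Cenpl, Zwint and Cenpb were short of the rule. Cenpl holds a CHR element before the stretch shown, at position -162 from the start, with CCAAT boxes and E2F sites, and Zwint and Cenpb hold no CHR element. Bub3, also short of the rule, holds a CHR element and CCAAT boxes but has several annotated starts and is not shown. An E2F site on the other strand reads in reverse complement.
Cenpa (chr5:30666766-30666915, plus strand): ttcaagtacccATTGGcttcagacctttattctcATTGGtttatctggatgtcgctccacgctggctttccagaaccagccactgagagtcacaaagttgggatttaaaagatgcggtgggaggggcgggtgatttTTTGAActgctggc
Cenpf (chr1:189688057-189688206, minus strand): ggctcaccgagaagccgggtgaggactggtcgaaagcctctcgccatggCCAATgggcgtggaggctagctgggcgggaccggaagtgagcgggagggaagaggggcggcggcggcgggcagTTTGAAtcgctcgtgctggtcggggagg
Cdca8 (chr4:124936888-124937037, minus strand): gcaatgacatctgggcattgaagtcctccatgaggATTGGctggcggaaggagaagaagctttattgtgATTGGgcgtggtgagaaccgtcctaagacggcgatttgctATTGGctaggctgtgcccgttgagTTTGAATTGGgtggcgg
Ttk (chr9:83834569-83834718, plus strand): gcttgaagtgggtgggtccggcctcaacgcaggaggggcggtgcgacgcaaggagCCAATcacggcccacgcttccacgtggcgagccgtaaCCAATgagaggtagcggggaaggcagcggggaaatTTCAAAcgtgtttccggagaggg
Cenpe (chr3:135212443-135212592, plus strand): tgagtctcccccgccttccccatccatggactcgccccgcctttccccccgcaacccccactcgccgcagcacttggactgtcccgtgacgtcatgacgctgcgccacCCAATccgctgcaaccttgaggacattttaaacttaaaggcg
Nuf2 (chr1:169531435-169531584, minus strand): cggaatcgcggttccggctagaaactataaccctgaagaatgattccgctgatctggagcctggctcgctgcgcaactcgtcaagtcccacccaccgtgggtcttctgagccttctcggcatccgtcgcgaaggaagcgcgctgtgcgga
Cenpl (chr1:161070647-161070796, plus strand): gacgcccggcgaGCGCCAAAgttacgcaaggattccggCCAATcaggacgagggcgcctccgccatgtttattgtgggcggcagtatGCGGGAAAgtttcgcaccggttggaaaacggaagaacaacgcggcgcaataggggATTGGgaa
Zwint (chr10:72654726-72654875, plus strand): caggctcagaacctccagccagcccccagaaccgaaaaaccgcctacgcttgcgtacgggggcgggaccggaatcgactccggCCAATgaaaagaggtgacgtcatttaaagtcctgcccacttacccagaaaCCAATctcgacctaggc
Cenpb (chr2:131180038-131180187, minus strand): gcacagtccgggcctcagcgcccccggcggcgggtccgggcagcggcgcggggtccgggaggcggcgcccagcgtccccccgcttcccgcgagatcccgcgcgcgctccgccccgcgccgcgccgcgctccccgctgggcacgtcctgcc

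The CHR element began 3 bases after the annotated start in Cenpf, 8 in Ttk, 14 in Cdca8 and 17 in Cenpa, counting the start as 1. In Cdca8 it overlapped a CCAAT box by 1 base. Spc25, Plk1, Aurka and Bub1b held it further in, at 25, 31, 33 and 41, and Ndc80 held it at 30 on the other strand. Of the members' 42 windows, 37 held bases from the start of an annotated transcript of the gene. The windows of Aurka, Cenpq, Mad2l1 and Pmf1 did not, so their motif positions are less certain. Over the matched members, 14 of 37 genes (37.8%) had a CHR element in the whole window, beside 20.2% of 27025 genes with a window and 14.1% of 9871 such genes at the minimum mean. A CCAAT box was present in 24 of 37 (64.9%), beside 41.1% and 43.2%. Both motifs were present in 12 of 37 (32.4%), beside 7.97% and 5.72%. An E2F site was present in 4 of 37 (10.8%), beside 2.61% and 4.73%, and these were Cenpm, Cenpl, Cenpb and Dsn1. Of all genes at the minimum mean 79.6% had a window, and of the members 84.1%. The 7 members without one were all mitosis-specific and all met the size rule. The motif shares by rule and by class below therefore leave out genes of these groups only.

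Genes with a CHR element stood on both sides of the size rule. It was found in 12 of 27 members that met the rule (44.4%) and in 2 of 10 that did not, Cenpl and Bub3. Of genes with a window at the minimum mean, 14.1% had it. A CCAAT box was found in 19 of 27 (70.4%) and in 5 of 10, beside 43.2%. An E2F site was found in 2 of 27 (7.41%) and in 2 of 10, beside 4.73%. The 10 genes short of the rule are too few to read a difference from these shares. By class, 11 of 23 mitosis-specific genes (47.8%) and 3 of 13 constitutive genes (23.1%) had a CHR element, the latter being Cenpa, Cenpn and Cenpl. A CCAAT box was about as frequent in both classes, 15 of 23 (65.2%) and 9 of 13 (69.2%). An E2F site was found in 1 of 23 mitosis-specific genes (4.35%) and 3 of 13 constitutive genes (23.1%). Of the members that met the rule, Nuf2, Mad2l1, Birc5, Knstrn and Cenpp had none of the 3 motifs. Their log2 ratios ran from -2.12 for Nuf2 to -1.42 for Cenpp in the authors' deposited table. A match is a run of letters in the window and not a shown binding site.

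**Figure D4:**
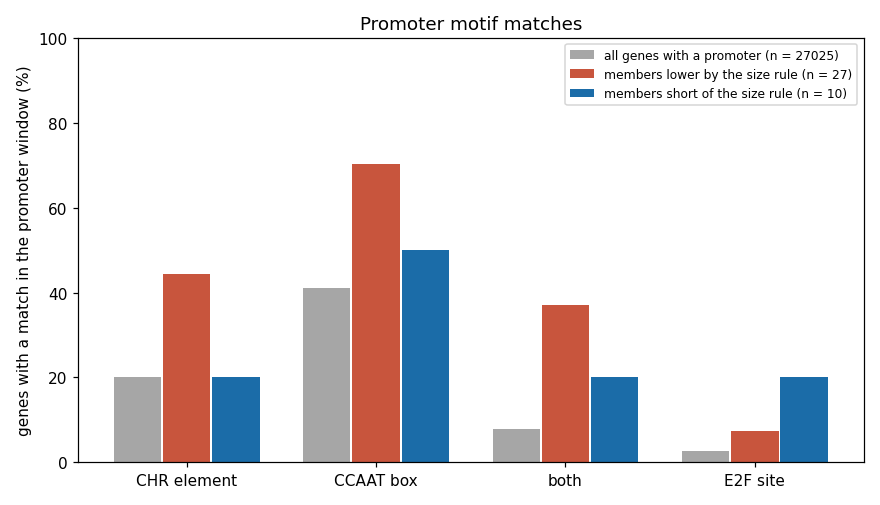
Bars give the percentage of genes with a motif match in the promoter window for all genes with a window (27025), members that met the size rule (27) and members short of it (10). CHR elements stood at 20.2% of all genes and 44.4% of the 27, and CCAAT boxes at 41.1% and 70.4%.

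Within centromeric chromatin, the histone variant and the satellite-binding protein differed. Cenpa, which encodes the histone H3 variant that marks the centromere, was 3.30-fold lower in condition B at a mean of 1555, with an adjusted p of 0.340 in the authors' deposited table. Cenpb, whose protein binds the CENP-B box of mouse minor satellite DNA, had the highest mean of the 44, 12453. Its ratio in the authors' deposited table was 1.21 in favour of condition B, the highest of the members, and it lay above those of 73.4% of all genes. Cenpa lay among the lowest 4.06% of ratios.

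Among the members that connect this chromatin to the outer kinetochore, Cenpc1 and Cenpt showed small ratios. Cenpc1, whose protein binds CENP-A nucleosomes and recruits the MIS12 complex, was 1.18-fold lower at a mean of 2470 in the authors' deposited table. Cenpt, whose protein has a histone fold and recruits NDC80, was 1.34-fold lower at a mean of 2227. The authors' deposited table gives both an adjusted p of 1, and both stayed short of the size rule.

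The genes of the CENP-H, CENP-I, CENP-K and CENP-M group met the size rule in 4 of 4 cases, each lower, beside 9.60% of all genes. An unadjusted p under 0.05 is listed for 2 of the 4 in the authors' deposited table. Cenpm was 5.03-fold lower in condition B, the largest ratio of a constitutive gene, at a mean of 442 (adjusted p = 0.251 in the authors' deposited table). Cenpi was 3.52-fold lower, Cenpk 2.93-fold and Cenph 2.66-fold in the authors' deposited table. Cenpn, whose protein reads the CENP-A nucleosome, was 3.35-fold lower, and its partner Cenpl, short of the rule, stood at 1.90-fold in the authors' deposited table. In the CENP-O group, Cenpp was 2.67-fold, Cenpq 2.51-fold and Cenpo 1.75-fold lower in the authors' deposited table. At an unadjusted p under 0.05 the authors' deposited table lists 4 of the 13 constitutive genes, each lower, beside 3.18% of all genes.

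Cenpo and Cenpp are uncertain, because the library kit does not mark strand and other genes share their exons on the opposite strand in GENCODE M21. Adcy3 shares 19.0% of the exon bases of Cenpo, and the authors' deposited table lists it at -0.34 on the log2 scale. Ippk shares 12.3% of those of Cenpp and had a ratio of -0.11 there. Aspn, with a log2 ratio of 1.47 and a mean of 8465 in the authors' deposited table, lies across Cenpp on the other strand and shares 7 bases of its exons. In all, 11 members share exon bases with another listed gene, and the 5 that share at least 5% with 1 gene are named here and below. Among those that share less are Cdca8 (4.48%), Cenpk (4.45%), Cenpq (3.65%) and Ska3 (2.88%). The part of such reads in the ratios was not tested.

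The NDC80 complex, the microtubule-binding core of the outer kinetochore, was lower in 4 of 4 subunits. Spc24 was 4.63-fold, Ndc80 4.45-fold and Nuf2 4.36-fold lower by the authors' deposited table, so these 3 lay within 0.09 of each other on the log2 scale. Spc25, the partner of Spc24, stood apart at 2.13-fold lower with a mean of 1488 in the authors' deposited table. The adjusted p was 0.0989 for Ndc80, 0.103 for Nuf2, 0.288 for Spc24 and 1 for Spc25 in the authors' deposited table.

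The MIS12 complex, which links CENP-C to NDC80, was uneven. Nsl1 was 3.67-fold lower at a mean of 328, Pmf1 2.66-fold and Dsn1 2.12-fold in the authors' deposited table. Mis12 itself was 1.30-fold lower at a mean of 2646, short of the rule, in the authors' deposited table. Derl2 shares 7.69% of the exon bases of Mis12 on the other strand, and its own log2 ratio was -0.02 in the authors' deposited table. Zwint, whose protein binds the scaffold KNL1, was 1.11-fold higher in condition B at a mean of 6575 in the authors' deposited table. The KNL1 gene itself, listed as Casc5, was 4.65-fold lower at a mean of 1160 in the authors' deposited table.

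The SKA complex, which helps NDC80 hold on to shortening microtubules, contained the lowest ratio of the members. Ska1 was 7.04-fold lower in condition B at a mean of 335 (adjusted p = 0.141 in the authors' deposited table), among the lowest 1.05% of all genes. Ska3 was 3.02-fold lower at a mean of 852, and Ska2, which is not among the 44, stood at 2.25-fold in the authors' deposited table.

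The fibrous corona, the outermost layer of kinetochores that lack microtubules, held a pair of genes with low adjusted p-values. Cenpf, encoding a large coiled-coil protein, was 4.99-fold lower at a mean of 3026, and its adjusted p of 0.0371 in the authors' deposited table was the lowest of the members. Cenpe, encoding a kinesin that moves chromosomes to the spindle equator, was 4.41-fold lower at a mean of 4419 (adjusted p = 0.0611 in the authors' deposited table). Zwilch, of the complex that brings dynein and the checkpoint proteins to kinetochores, stood at 2.07-fold lower in the authors' deposited table. Its complex partner Kntc1 was 4.37-fold lower (adjusted p = 0.0953) and Zw10 1.39-fold lower in the authors' deposited table. Lctl shares 5.93% of the exon bases of Zwilch on the other strand, at a mean of 25.5.

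Of the 6 checkpoint genes, 4 met the size rule, each lower in condition B, beside 9.60% of all genes. Bub1b, encoding BubR1 of the mitotic checkpoint complex, was 4.44-fold lower in condition B at a mean of 2975 (adjusted p = 0.0695 in the authors' deposited table). Bub1, a kinetochore kinase gene, was 4.18-fold lower at a mean of 2309 (adjusted p = 0.105 in the authors' deposited table). Mad2l1, whose protein holds Cdc20 inactive, was 3.93-fold lower at a mean of 2544, and the kinase gene Ttk, also known as Mps1, was 3.26-fold lower at 1012 in the authors' deposited table. Bub3 and Mad1l1 were 1.17-fold and 1.44-fold lower in the authors' deposited table, at means of 7016 and 2790. The protein of Bub3 binds Bub1 and BubR1, and that of Mad1l1 is the kinetochore partner of Mad2. The 4 checkpoint genes that met the rule lay between -2.15 and -1.70 on the log2 scale, and the other pair lay at -0.52 and -0.22.

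The chromosomal passenger complex, which corrects faulty attachments and acts in cytokinesis, had the most even ratios among the complexes of 4 genes. The kinase gene Aurkb was 4.14-fold lower, Birc5 (survivin) 3.66-fold, Cdca8 (borealin) 3.38-fold and the scaffold gene Incenp 3.12-fold in the authors' deposited table. These 4 log2 ratios spanned 0.41, beside 0.92 for CENP-H, CENP-I, CENP-K and CENP-M, 1.12 for NDC80 and 1.49 for MIS12. Their means were 1622, 2418, 2020 and 3506, and each had an unadjusted p under 0.05 in the authors' deposited table.

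Shugoshin genes, whose proteins protect centromeric cohesion, were close to each other. Sgol1 was 3.73-fold and Sgol2 3.55-fold lower in condition B, with an adjusted p of 0.261 for each in the authors' deposited table. Sgol2 is uncertain, since Kctd18 shares 35.0% of its exon bases on the opposite strand, and its log2 ratio was 0.30 in the authors' deposited table.

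Among the mitotic kinases and spindle factors, Plk1 had the lowest ratio. It encodes polo-like kinase and was 4.23-fold lower in condition B at a mean of 3379 (adjusted p = 0.0840 in the authors' deposited table). Knstrn, encoding a kinetochore-localized adaptor, was 3.26-fold lower at a mean of 1792 in the authors' deposited table. Aurka, the centrosome and spindle kinase gene, was 2.73-fold lower at 2423, less than Aurkb at 4.14-fold. Tpx2, whose protein activates Aurora A on microtubules, was 2.53-fold lower at a mean of 7230 in the authors' deposited table. In the authors' deposited table the adjusted p was 0.568 for Aurka and 0.618 for Tpx2.

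Of 60 other genes of the same machinery, 58 reached the minimum mean, and by the size rule 21 of these were lower in condition B, beside 9.60% of all genes, and 0 higher, beside 8.31%. Their median log2 ratio was -0.53. In the authors' deposited table, 3 of them had an adjusted p under 0.1 and were lower in condition B, beside 0.871% of all genes: Espl1, Kntc1 and Ccna2. Espl1, encoding separase, was 6.28-fold lower at a mean of 2485 (adjusted p = 0.0107 in the authors' deposited table), the largest ratio of the 58. Next in size were Oip5 (5.07-fold), Casc5, Kntc1, Trip13 (4.17-fold) and the cyclin A gene Ccna2 (4.09-fold), each lower in the authors' deposited table.

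Among the factors that load CENP-A, Oip5 was 5.07-fold and Mis18a 2.12-fold lower in the authors' deposited table. The CENP-A chaperone gene Hjurp lay under the minimum, with a mean of 36.4 and -1.73 on the log2 scale in the authors' deposited table. Among CENP partners of the members, Mlf1ip (Cenpu) was 3.42-fold and Cenpw 2.14-fold lower in the authors' deposited table. Apitd1 (Cenps), Itgb3bp (CENP-R) and Stra13 (Cenpx) were short of the rule, at -0.87, 0.27 and 0.45 on the log2 scale in the authors' deposited table.

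The anaphase-promoting complex, the ubiquitin ligase that the checkpoint restrains, showed small ratios. None of its 11 subunits measured met the size rule (0 of 11), beside 9.60% of all genes lower and 8.31% higher. The 0 therefore says nothing particular about these subunits. Their log2 ratios ran from -0.47 to 0.42 with a median of -0.09. Its activator Cdc20 was 2.75-fold lower, its E2 enzyme Ube2c 2.89-fold and its other activator Fzr1 1.41-fold in the authors' deposited table. Of the cohesin ring and release genes, 1 of 6 met the rule, Rad21 at 2.24-fold lower, beside 9.60% of all genes lower. The others ranged from Smc3 at 1.80-fold to Stag2 at 1.02-fold lower in the authors' deposited table. The mitotic cyclin and kinase genes Ccna2, Ccnb1, Ccnb2 and Cdk1 were lower in 4 of 4 cases, with a median log2 ratio of -1.66. Phosphatase, Ran and microtubule partners met the rule in 0 of 11 cases, which is likewise near the shares of all genes, and had a median of -0.23. Aurkc, the germ cell relative of Aurkb, had a mean of 3.06 in the authors' deposited table, under the minimum.

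**Figure D5:**
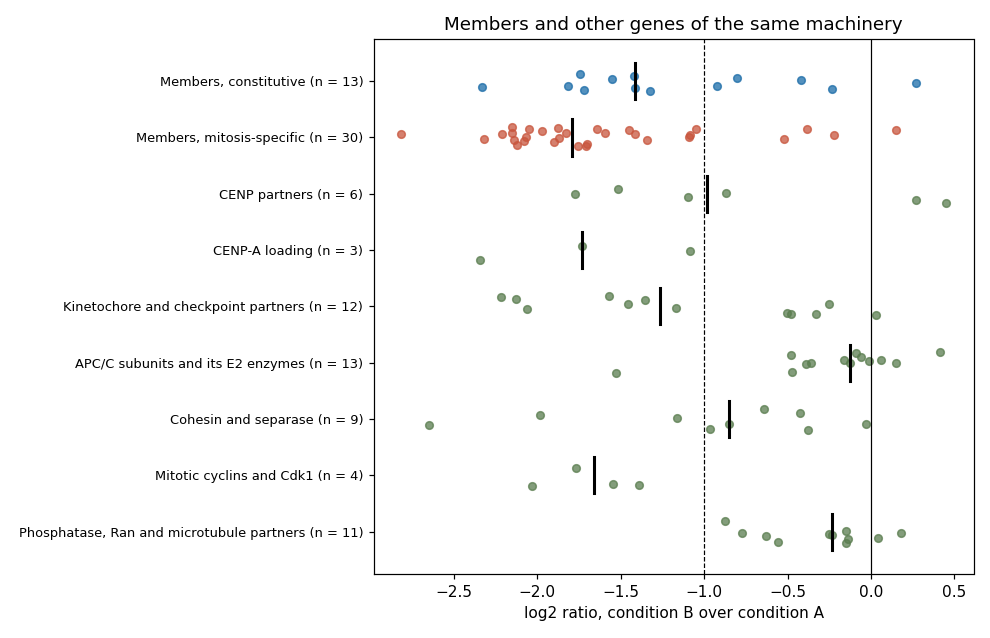
Points are genes at the minimum mean, placed by log2 ratio of condition B over condition A in rows by role, and black bars are medians. Scatter within a row is for legibility. The bars stand at -1.41 and -1.79 for the members, at -1.66 for mitotic cyclins and Cdk1, at -0.12 for the anaphase-promoting complex (APC/C) with its E2 enzymes and at -0.23 for phosphatase, Ran and microtubule partners.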

How the data were processed

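RNA was extracted with TRIzol from frozen pellets and made into TruSeq RNA v2 libraries, a kit that does not mark strand, per the labels' protocols. TopHat2 2.0, DESeq and mm9 are named per the submitters' processing notes. Not given in the sources used here are the counter and the annotation. The authors deposited 1 table of their comparison. Its signal is a gene count scaled by the size factor of its library, averaged over both conditions by the authors. Its ratio (fold) is the authors' value of condition B over condition A, its log2 value is the logarithm of that fold with no pseudocount, and its p-values are the authors' own, adjusted over 17339 genes.

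The 2 columns with a level per condition match no sample label and were not used, so the library depths were not analysed and no counting interval was computed. The planned comparison of genotypes became condition B over condition A. With 1 library per group no test was run here. Calls followed the size rule (log2 ratio of at least 1 in size, mean of at least 50) or the authors' adjusted p under 0.1, and were counted over all genes.

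The members, their classes and the other lists were chosen with earlier results of these data known. Named were the 44 members, their direct complex partners, the 6 largest ratios of the other pathway genes, Tet1, Tet2, Mki67, Foxm1, Mybl2 and E2f1. Other genes named were chosen after their values were seen. Promoters came from RefSeq (GRCm38.p6), lengths and shared exons from GENCODE M21, with symbols matched also through older names. A gene with several windows counts once if any holds the motif. Neither build is that of the authors, so no coordinate of theirs was used. Python 3.11.15, pandas 2.3.3 and NumPy 2.4.6 were used, and the counting of calls was tested on simulated data. Alternatives covered scaling, the minimum mean, the cut-offs and the classes. Values of 1 other pathway gene are not reported here.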

Additional observations from a re-analysis of the deposited data

How the results depend on the processing

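Of 44 recomputed values of 7 results, 42 stayed within 0.1 on the log2 scale or 1.5 times the count, and 2 moved. Part of the 42 could not move. The lowest mean of a member was 248, so no minimum mean tried left a member out or could change a result. A rescaling shifts each ratio alike and could not change the difference between class medians. Members lower in condition B numbered 34 under both rescalings, 37 at 1.5-fold and 11 at a log2 difference of 2 or more. Over all genes the share lower was 9.60% at the reported setting, 17.4% at 1.5-fold, 2.95% at the stricter size, and 13.5%, 10.6% and 8.32% with no minimum mean, a minimum of 10 and one of 200. Members under the authors' adjusted p numbered 5 at 0.1 and 1, Cenpf, at 0.05. Members higher in condition B numbered 0 in each setting tried, and the share of all genes higher ran from 3.84% at the stricter size to 18.2% with no minimum mean. Centring on the median of all genes (-0.04) or on a trimmed mean of log2 ratios (-0.04) gave a member median of -1.64 or -1.63. The difference between class medians was 0.38, and 0.44 with the MIS12 complex counted as constitutive or without Bub3 and Mad1l1.

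The main limit is 1 library per condition. The ratios describe 2 cultures, and their error was not measured. The genotype of each condition was not resolved. Reads per library were not analysed, so counting error is not given for low genes such as Cenpp, Cenpk, Nsl1 and Ska1.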
